A study of Homo sapiens with 6 samples.

Results

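The RNA interference machinery was described through 10 genes, taken from the 19976 genes of the deposited table because their symbols name its core proteins: AGO1, AGO2, AGO3, AGO4, DICER1, DROSHA, DGCR8, XPO5, TARBP2 and TNRC6A. All 10 were listed once and all 10 were abundant enough to be tested. The RNA came from THP-1, an established human line of monocytic leukaemia, made macrophage-like with the phorbol ester PMA (50 ng/ml for 48 h). Both groups then received siRNA at 200 nM for 48 h in a lipid carrier, and LPS, a bacterial cell wall component, at 200 ng/ml for 3 h. The control group (control siRNA, 3 libraries) received a control siRNA (NC in the labels) and the other group (circ siRNA, 3 libraries) an siRNA against the circular RNA hsa_circ_0004287. The siRNA load was thus the same in both groups, and no group without siRNA was analysed here. The level of the circular RNA itself was not analysed here, so the knockdown was not checked. Whether the libraries of a group stem from separate cultures is not said in the labels. A p-value here therefore reflects how far these libraries scatter, and that scatter may be technical.

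RNA interference silences transcripts that pair with a short guide RNA. In the nucleus the Microprocessor, made of the nuclease DROSHA and the RNA-binding protein DGCR8, cuts hairpins out of primary microRNA transcripts, and exportin 5 (XPO5) carries them to the cytoplasm. There the nuclease DICER1, with its partner TARBP2, trims the hairpin to a duplex, from which an Argonaute protein keeps a single strand. A synthetic siRNA duplex enters at this last step. Argonautes with a microRNA recruit TNRC6 proteins and, through them, enzymes that shorten the poly-A tail, while AGO2 can also cut a fully paired target itself. Macrophages rely on microRNAs to limit their responses to LPS.

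The machinery also carries microRNAs inside its own genes, which are shown because they tie the Microprocessor to a member of the list: it is known to cut hairpins within the DGCR8 transcript itself. The sequences below are from RefSeq (GRCh38.p14), with the seed, bases 2 to 8, in capitals. The arm of MIR3618 lies at chr22:20085797-20085818, plus strand, in the untranslated part of an exon in 3 annotated DGCR8 transcripts. The arms of MIR1306 lie at chr22:20086072-20086093 and chr22:20086112-20086129, plus strand, in an exon of 5 transcripts and in the coding part of 4. The arms of MIR3173 lie in no DICER1 exon but inside its span, at chr14:95137961-95137982 and chr14:95137923-95137944, minus strand. No seed is shared among them, and the levels of these microRNAs were not analysed here.
hsa-miR-3618: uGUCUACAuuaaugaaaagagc
hsa-miR-1306-5p: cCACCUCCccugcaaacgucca
hsa-miR-1306-3p: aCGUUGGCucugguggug
hsa-miR-3173-5p: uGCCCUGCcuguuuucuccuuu
hsa-miR-3173-3p: aAAGGAGGaaauaggcaggcca

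AGO4, AGO1 and AGO3 stand in a row on the plus strand of chromosome 1. In the deposited coordinates (GRCh38), 11917 bases separate AGO4 from AGO1, and only 185 separate AGO1 from AGO3. Transcripts of these 3 neighbours varied together from library to library, but AGO2 and DICER1, on other chromosomes, varied with them about as closely (below). The RefSeq promoter windows of the 3 neighbours, from 250 bases before to 50 after an annotated start, are shown here. They lie at chr1:35807766-35808065 for AGO4, chr1:35882959-35883258 for AGO1 and chr1:35930855-35931154 for AGO3, all on the plus strand of GRCh38.p14. The AGO1 and AGO3 windows lie within the deposited spans of those genes and belong to starts downstream of the first ones. Capitals mark matches on either strand to GGGCGG, the GC box, and to CCGGAAG, an ETS-type site. In AGO3 an ETS-type match overlaps a GC box.
AGO4: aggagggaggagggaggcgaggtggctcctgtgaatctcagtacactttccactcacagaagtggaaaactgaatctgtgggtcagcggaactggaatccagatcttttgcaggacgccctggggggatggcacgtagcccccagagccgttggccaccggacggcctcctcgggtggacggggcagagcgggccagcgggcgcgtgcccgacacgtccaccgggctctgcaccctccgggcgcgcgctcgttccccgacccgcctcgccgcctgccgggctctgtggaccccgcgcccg
AGO1: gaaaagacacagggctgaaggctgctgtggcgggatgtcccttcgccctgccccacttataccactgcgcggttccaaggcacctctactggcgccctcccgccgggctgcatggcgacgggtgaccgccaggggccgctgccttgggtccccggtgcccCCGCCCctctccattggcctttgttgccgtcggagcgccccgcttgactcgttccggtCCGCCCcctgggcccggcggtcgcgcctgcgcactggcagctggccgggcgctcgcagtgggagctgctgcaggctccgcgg
AGO3: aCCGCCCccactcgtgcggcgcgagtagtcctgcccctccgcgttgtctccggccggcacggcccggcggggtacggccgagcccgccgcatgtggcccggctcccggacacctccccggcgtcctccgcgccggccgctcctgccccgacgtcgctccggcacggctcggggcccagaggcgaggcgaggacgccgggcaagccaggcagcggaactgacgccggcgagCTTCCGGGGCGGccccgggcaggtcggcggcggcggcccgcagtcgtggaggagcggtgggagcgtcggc

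The GC box occurred 2 times in each of the AGO1 and AGO3 windows and 0 times in that of AGO4. It was present in 44.95% of all 35116 windows of the same length. The ETS-type site was found once, in AGO3, against 10.3% of all windows. The TATA word TATAAA, present in 11.5% of all windows, had no match in these 3 windows. CpG pairs numbered 30 in the AGO1 window, 50 in that of AGO3 and 29 in that of AGO4, against a median of 14 over all windows. Of the 10 genes, 9 had a RefSeq window that was examined.

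Libraries held from 14793902 to 16736972 counts, of which 3 counts correspond to 0.179 to 0.203 CPM (counts relative to the library total). Of 9 macrophage markers, CSF1R, SPI1, TYROBP, CD14, ITGAM and FCGR1A were at 11.3 CPM or more in every library and LYZ at 4.18 to 6.21 CPM, while CD68 had 1 to 5 counts and MRC1 had 2 to 6. Summed, the list reached 2357 to 2854 CPM in the control group and 1880 to 2702 CPM in the circ group. Epithelial markers summed to at most 0.693 CPM in any library, and T and NK cell markers to 3.07 to 6.13 CPM with CD3G and CD2 at 0. B cell markers summed to 1.91 to 3.32 CPM and fibroblast markers to 11.6 to 19.2 CPM, the latter almost all from COL1A1. On the first principal component (53.4% of the variance), control library 1 (-23.2) and circ library 3 (-38.4) were the lowest. The other 4 libraries were themselves spread from -1.51 to 30.4. The deviation of a gene from its 6-library mean moved with gene length in most libraries. Across the 12469 tested genes, which are not independent replicates, Spearman's rho with length was 0.47 in control library 1 and 0.39 in circ library 3. It was -0.44 and -0.40 in control libraries 2 and 3, and 0.05 and -0.29 in circ libraries 1 and 2. Results are therefore also given without this pair of libraries.

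The members differed widely in level. Per length, AGO2 was the most abundant, with a mean over the 6 libraries of 15.1 FPKM (the authors' value per length and library total) and a range of 12.1 to 19.8 FPKM. This placed it above 79.5% of tested genes. XPO5 followed with 9.55 FPKM. Both were separated from the next gene in every library. DROSHA (5.67 FPKM), TARBP2 (4.94 FPKM) and DGCR8 (4.72 FPKM) came next with overlapping ranges. TARBP2 was above DGCR8 in 3 of the 6 libraries, so this pair had no stable order. DICER1, at 3.49 FPKM, was below DGCR8 in all 6 libraries. AGO4 (2.20 FPKM), TNRC6A (1.68 FPKM), AGO1 (1.39 FPKM) and AGO3 (1.11 FPKM) were the lowest, and AGO3 was above only 25.8% of tested genes. Neighbours below XPO5 overlapped in range, although AGO4 exceeded TNRC6A, and AGO1 exceeded AGO3, within each library.

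These levels rest on the deposited gene lengths, which lie within 156 bases of the union of all annotated exons in GENCODE 29. They run from 4090 bases for TARBP2 to 21153 bases for AGO3. With the length of the longest annotated transcript instead, an alternative chosen after the data were seen, TARBP2 moved up in the order, to 10.8 FPKM, above DROSHA at 8.31 FPKM. XPO5 then reached 15.1 FPKM, close to AGO2 at 16.4 FPKM. TNRC6A, at 2.58 FPKM, moved above AGO4 at 2.30 FPKM. AGO2 stayed first, and AGO1 and AGO3 last.

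**Figure D1:**
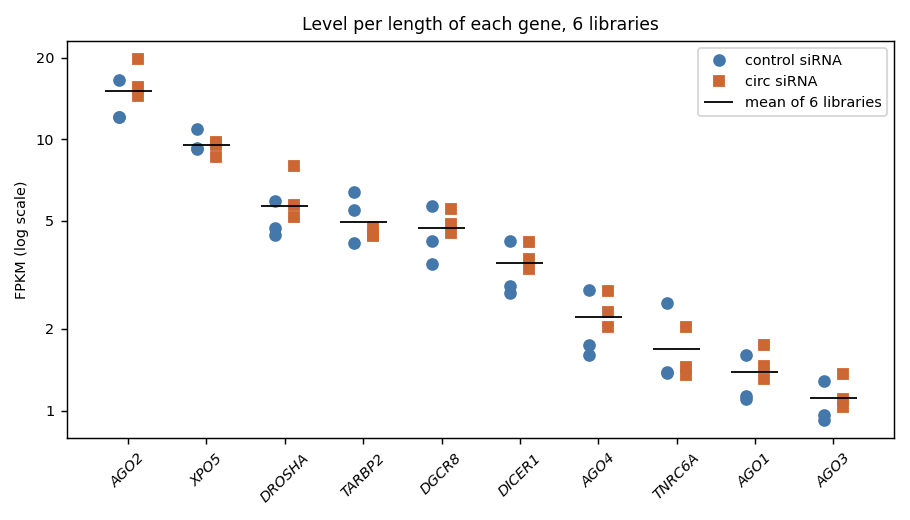
Level of each of the 10 genes in FPKM (log axis), with 1 point per library for control siRNA (circles) and circ siRNA (squares) and a line at the mean of the 6 libraries. AGO2 lies at 12.1 to 19.8 FPKM and AGO3, the lowest, at 0.920 to 1.36 FPKM.

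The Argonautes bind the guide strand, and AGO2 (ENSG00000123908, chromosome 8, 140520156 to 140635633, minus strand) is the member with strong slicing activity. It had 250.2, 201 and 197 CPM (TMM-scaled) in control libraries 1 to 3 and 248, 237 and 298 CPM in circ libraries 1 to 3. Circ library 3 was the highest, and control library 1 lay among the circ libraries, so the groups overlapped. The group means were 216 ± 29.8 and 261 ± 32.3 CPM (SD, n = 3 for both). On the log2 scale, circ siRNA minus control siRNA came to 0.27, with an SE of 0.15 and a 95% interval of -0.06 to 0.61 (quasi-likelihood test of edgeR, adjusted p = 0.860). Across all tested genes, 0.00802% were called at an adjusted p under 0.05, and AGO2 was not among them.

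AGO1 (ENSG00000092847, chromosome 1, 35869808 to 35930532, plus strand) had 21.1, 16.1 and 16.2 CPM in the control libraries and 20.3, 18.7 and 23.1 CPM in the circ libraries. AGO3 (ENSG00000126070, chromosome 1, 35930718 to 36072500, plus strand) had 25.8, 20.4 and 20.9 CPM in the control libraries and 23.4, 22.4 and 27.4 CPM in the circ libraries. AGO4 (ENSG00000134698, chromosome 1, 35808016 to 35857890, plus strand) had 19.6, 13.6 and 12.2 CPM in the control libraries and 17.1, 15.6 and 19.4 CPM in the circ libraries. In all of them control libraries 2 and 3 were the lowest and control library 1 was above circ libraries 1 and 2, so the groups overlapped. Their log2 fold changes were 0.22 for AGO1 (95% interval -0.16 to 0.59), 0.12 for AGO3 (-0.22 to 0.47) and 0.20 for AGO4 (-0.27 to 0.66), and none was called.

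The share of each Argonaute was taken from FPKM, which is per length. Summed over AGO1 to AGO4, the level was 22.2, 15.8 and 15.8 FPKM in the control libraries and 20.5, 18.9 and 25.7 FPKM in the circ libraries. AGO2 made up 74.6%, 76.2% and 76.6% of this sum with control siRNA and 76.3%, 76.8% and 77.1% with circ siRNA. The groups overlapped, the means being 75.8% ± 1.06 and 76.7% ± 0.45 (SD, n = 3 each; exact permutation test, two-sided, p = 0.2). With counts in place of FPKM the share was 79.0%, 80.02% and 79.95% against 80.3%, 80.7% and 81.0%, so the groups did not overlap (difference 1.015 percentage points, exact permutation p = 0.1, the smallest possible). In FPKM, the difference of 0.968 percentage points fell to 0.364 without control library 1 and to 0.167 without control library 1 and circ library 3. AGO3's share was 5.76%, 5.81% and 6.11% in the control libraries against 5.39%, 5.43% and 5.32% in the circ libraries, with no overlap. Its exact permutation p was 0.1, the smallest that 3 libraries against 3 allow, and 0.267 after Benjamini-Hochberg adjustment over the 4 shares. AGO1 contributed 7.12% ± 0.13 and 6.96% ± 0.15, and AGO4 11.2% ± 1.19 and 10.9% ± 0.28. The shares of AGO1, AGO3 and AGO4 were looked at after the data were seen.

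Identical stretches of 75 bases, which can split reads between paralogs, were looked for among the transcripts of GENCODE 29. Stretches that differ by even a single base were not looked for. No stretch of 75 bases in the longest transcript of any of the 4 Argonautes was found in a transcript of another of them. AGO1 shared 2.36% of such stretches with an overlapping antisense long noncoding RNA, AL139286.2.

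**Figure D2:**
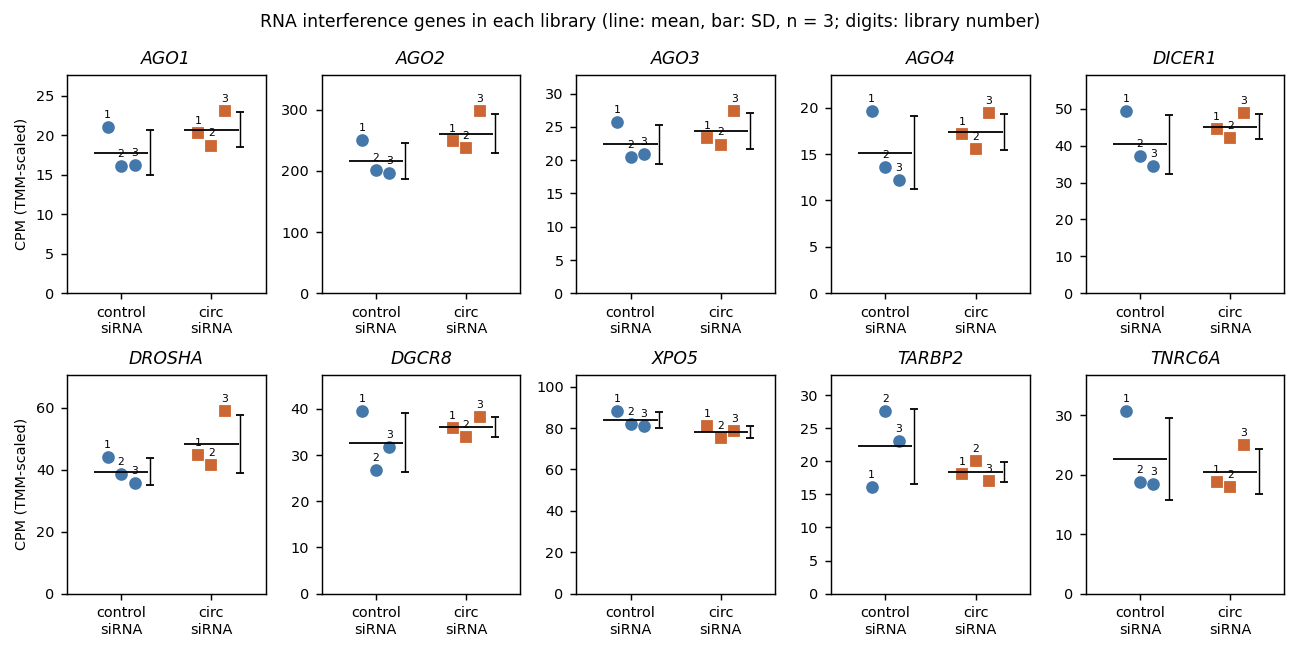
TMM-scaled CPM of each gene in each library (axis from 0), with the group mean as a line and the SD as a bar (n = 3); digits are library numbers. For AGO2, the control libraries span 197 to 250.2 CPM and the circ libraries 237 to 298 CPM.

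Both Microprocessor genes had positive differences that were not called. DROSHA (ENSG00000113360, chromosome 5, 31400497 to 31532196, minus strand) had 44.0, 38.5 and 35.6 CPM in the control libraries and 44.7, 41.4 and 58.8 CPM in the circ libraries. Circ library 3 was the highest, and control library 1 lay between circ libraries 2 and 1. The log2 fold change was 0.29 (95% interval -0.08 to 0.67; edgeR adjusted p = 0.864). DGCR8 (ENSG00000128191, chromosome 22, 20080232 to 20111877, plus strand) had 39.5, 26.8 and 31.8 CPM in the control libraries and 35.8, 34.0 and 38.3 CPM in the circ libraries, with control library 1 the highest of all. Its log2 fold change was 0.14 (95% interval -0.23 to 0.51). In FPKM, the log2 ratio of DROSHA to DGCR8 was 0.07, 0.44 and 0.07 in the control libraries and 0.23, 0.19 and 0.53 in the circ libraries. The ratio overlapped between groups (difference 0.13, exact permutation test, two-sided, p = 0.5), and without control library 1 and circ library 3 the difference was -0.04. DGCR8 shared 8.51% of its stretches of 75 bases, almost all with the antisense gene AC006547.2 at its end, so its count may hold reads from that gene if strand was not used.

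XPO5 (ENSG00000124571, chromosome 6, 43522334 to 43576038, minus strand), the export receptor, was the steadiest member. Its level was 88.1, 82.0 and 80.95 CPM in the control libraries and 80.8, 75.3 and 78.5 CPM in the circ libraries. All circ libraries were below all control libraries in TMM-scaled CPM, but circ library 1 and control library 3 all but touched. On that scale, a circ group wholly below the control group was found for 5.87% of tested genes. Groups were apart in either direction for 12.5%, so 1 of 10 members is near the background. In FPKM the XPO5 groups overlapped, at 9.2 to 10.9 in the control libraries and 8.64 to 9.76 in the circ libraries. The log2 fold change was -0.10 (95% interval -0.34 to 0.15; edgeR adjusted p = 0.889). Of its exon bases, 4.08% overlap POLR1C on the other strand.

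DICER1 (ENSG00000100697, chromosome 14, 95086228 to 95158010, minus strand) had 49.4, 37.2 and 34.4 CPM in the control libraries and 44.5, 42.1 and 48.8 CPM in the circ libraries. Control library 1 was the highest, and control libraries 2 and 3 the lowest. Its log2 fold change was 0.16 (95% interval -0.21 to 0.53). TARBP2 (ENSG00000139546, chromosome 12, 53500921 to 53506431, plus strand), the partner of DICER1 in handling the duplex, ran the other way, with 16.2, 27.5 and 23.0 CPM in the control libraries and 18.1, 20.01 and 17.1 CPM in the circ libraries. Here control library 1 was the lowest and control libraries 2 and 3 the highest. The log2 fold change was -0.27 (95% interval -0.73 to 0.19; edgeR adjusted p = 0.882). It was -0.09 without control library 2 and -0.46 without control library 1. PRKRA, a second DICER1 partner, was lower per length than TARBP2, at a mean of 2.32 against 4.94 FPKM.

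TNRC6A (ENSG00000090905, chromosome 16, 24610209 to 24827632, plus strand), the scaffold that links Argonautes to deadenylation, had 30.7, 18.7 and 18.5 CPM in the control libraries and 18.8, 17.9 and 24.9 CPM in the circ libraries. Control library 1 was the highest and circ library 3 the next, and the other 4 libraries lay close together. The log2 fold change was -0.14 with all libraries (95% interval -0.68 to 0.39), 0.14 without control library 1 and -0.02 without control library 1 and circ library 3. Per length it was the most abundant of its family, at a mean of 1.68 FPKM against 0.769 for TNRC6B and 0.532 for TNRC6C.

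Over the whole machinery, 0 of 10 members were called higher and 0 lower in edgeR, where the background was 0.00802% of genes. DESeq2, which called 0.666% of all genes, and limma-voom, which called 0%, also called 0 members. At an unadjusted p under 0.05 there were again 0 members, against 6.45% of all tested genes. Without control library 1 this count was 6 of 10 (AGO1, AGO2, AGO4, DICER1, DGCR8 and TARBP2), where 19.8% of all genes had such a p. With circ library 3 left out as well the count was 7 of 10, DROSHA being added, where 30.1% of all genes had one. Most members followed each other across the libraries (below), so these counts are not counts of independent genes. The pair left out was also chosen for its place in these same data. The log2 fold change was positive for 7 members and negative for 3, with a median of 0.15, beside a median of -0.01 over all tested genes. The members' median was 0.32 without control library 1, 0.07 without control library 3 and 0.24 without control library 1 and circ library 3. The 95% intervals of all 10 lay within a 2-fold change in either direction. For 4 members (AGO3, DICER1, DGCR8 and XPO5) they also lay within 1.5-fold, while for AGO1, AGO2, AGO4 and DROSHA they reached above 1.5-fold up and for TARBP2 and TNRC6A above 1.5-fold down. As single libraries were left out, 0 members were called at an adjusted p under 0.05, but the size of every member's fold change moved. The log2 value ran from 0.13 to 0.36 for AGO1, from 0.17 to 0.39 for AGO2, from 0.03 to 0.24 for AGO3 and from 0.06 to 0.43 for AGO4. It ran from 0.06 to 0.34 for DICER1 and from 0.02 to 0.30 for DGCR8. These 6 genes were each highest without control library 1. DROSHA ran from 0.13 without circ library 3 to 0.39 without circ library 2, and XPO5 from -0.12 without circ library 1 to -0.06 without control library 1. In bulk RNA, fewer cells expressing a gene and less of its RNA per cell cannot be told apart.

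Without control library 1 and circ library 3, which leaves 2 libraries a group, AGO2 was called higher (log2 fold change 0.29, 95% interval 0.14 to 0.44; edgeR adjusted p = 0.0169) and TARBP2 lower (-0.40, -0.67 to -0.14; adjusted p = 0.0416). That fit called 14.8% of all genes (7.38% higher and 7.43% lower), so 2 of 10 members is close to the background. DICER1 (0.28, adjusted p = 0.0627) and AGO4 (0.35, adjusted p = 0.0892) did not pass the threshold there. With offsets for each library's trend with gene length and GC content, 0 members were called, against 0.0962% of all genes. The log2 fold changes of AGO2, AGO1 and AGO3 were then 0.16, 0.12 and 0.01, that of DROSHA was 0.22 and that of TARBP2 -0.22. Those of XPO5 (-0.17) and TNRC6A (-0.23) were farther from 0 than without the offsets (-0.10 and -0.14). The median over members was 0.10 with the offsets.

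**Figure D3:**
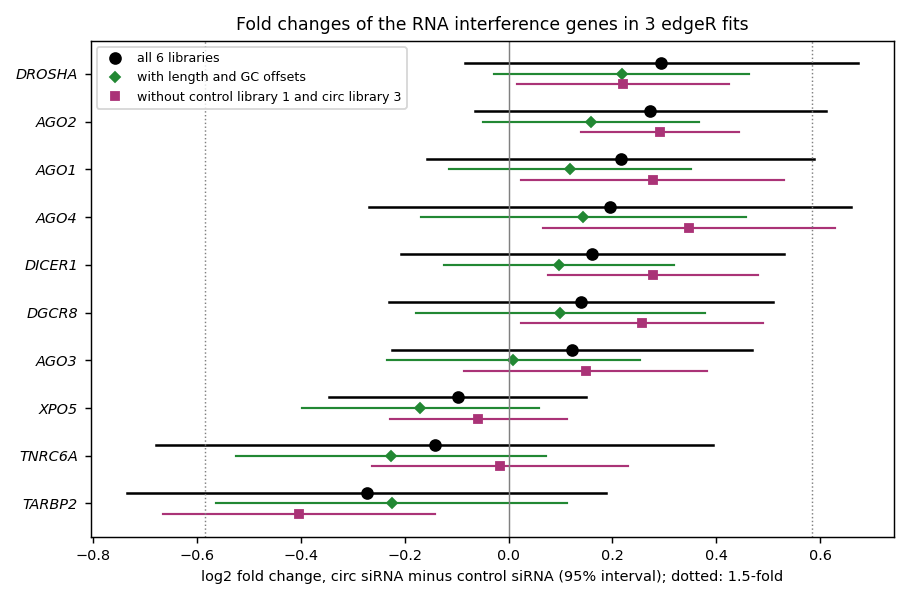
Log2 fold change, circ siRNA minus control siRNA, with 95% interval for each gene in 3 edgeR fits; dotted lines mark a 1.5-fold change. With all 6 libraries every interval includes 0, and without control library 1 and circ library 3 the AGO2 value is 0.29 and the TARBP2 value -0.40.

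The control libraries differed among themselves by more than the group means did. For 10 of 10 members the range among the control libraries on the log2 CPM scale was wider than the difference between the means. Neither this count nor the counts of members above or below their mean were taken over all tested genes. They are therefore not read as particular to the members. On the log2 CPM scale, 9 of 10 members were above their 6-library mean in control library 1 and 8 of 10 in circ library 3. In contrast, 8 of 10 were below it in control libraries 2 and 3 and in circ library 2. The median deviation was 0.15 in control library 1 and 0.24 in circ library 3, against -0.19 and -0.21 in control libraries 2 and 3. It was smaller in size in circ library 2, at -0.03, and in circ library 1, at 0.06, where 7 of 10 members were above their mean. TARBP2, the shortest member and the one with the highest GC content (60.8%), was below its mean in control library 1 and circ library 3, at -0.30 and -0.23. XPO5 was also slightly below its mean in circ library 3, at -0.04. TNRC6A had the widest range, 0.77 between its highest and lowest library, and XPO5 the narrowest, 0.23. The trend of all genes with length and GC content, evaluated at each member's length and GC, was 0.21 in control library 1 and 0.28 in circ library 3 for AGO2, whose deviations were 0.08 and 0.33. For TARBP2 the trend was -0.13 in both. The trend and the deviation were not close for every member. XPO5 in circ library 3 had a trend of 0.17 and a deviation of -0.04, and TNRC6A in control library 1 had 0.20 and 0.53. Length and GC content thus moved with some of the members' deviations, and their part in them was not tested.

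**Figure D4:**
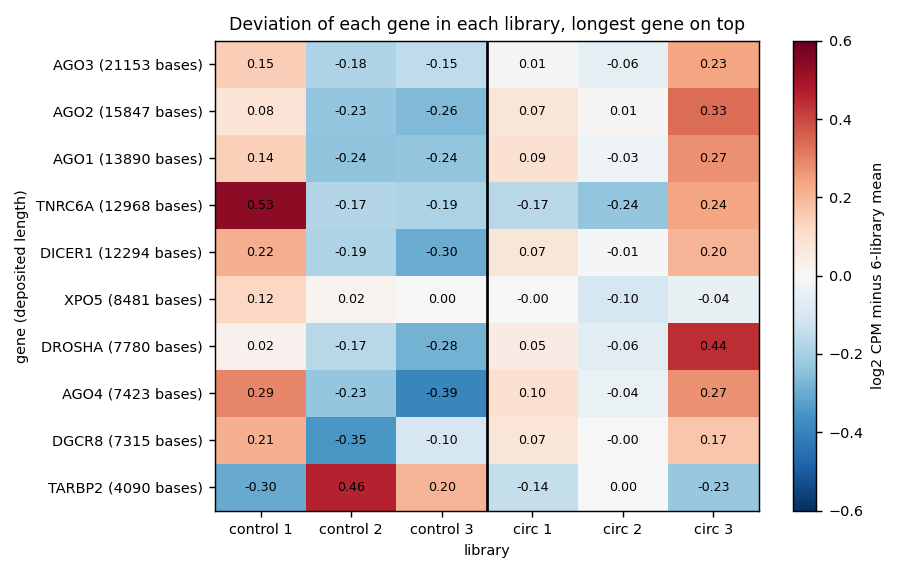
Deviation of each gene's log2 CPM from its mean over the 6 libraries, with genes ordered by deposited length and libraries in columns (red above the mean, blue below). Control library 1 and circ library 3 are red for most genes, and TARBP2, the shortest, is blue there (-0.30 and -0.23).

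Across the 6 libraries, which share the pattern just described, most members followed each other. As a description, Pearson's r of log2 CPM was 0.93 to 0.97 among the neighbours AGO1, AGO3 and AGO4 and 0.91 to 0.98 between each of them and AGO2. DICER1 and AGO4 had an r of 0.999, and AGO4 was the tested gene most like DICER1. TNKS (0.994) was also among the genes most like DICER1. The genes most like AGO2 were PGM2L1 (0.998), TMPPE (0.996) and GINS4 (0.996). DGCR8 and TARBP2 mirrored each other with an r of -0.992. For XPO5, r with the Argonautes, DROSHA and DICER1 was between -0.14 and 0.22, and with TNRC6A it was 0.65. TNRC6A followed the Argonautes, DICER1 and the Microprocessor genes more loosely, with r from 0.53 (DROSHA) to 0.80 (AGO3).

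Other genes of the pathway were counted in 5 lists of 76 genes, of which 74 were tested. No gene of these lists was called higher or lower in edgeR or DESeq2, and 0 had an unadjusted p under 0.05 in edgeR. Positive log2 fold changes were found for 38 and negative ones for 36, with a median of 0.01. Without control library 1 and circ library 3, 5 were called higher and 2 lower, or 7 of 74, where that fit called 14.8% of all genes. The groups did not overlap for 11 of 74 genes, 10 of them lower, against 12.5% of all tested genes in either direction and 5.87% lower.

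Among cofactors of microRNA biogenesis (19 tested, median -0.06), the smallest p belonged to NCBP2, a subunit of the nuclear cap-binding complex, with 83.4 ± 2.17 CPM in the control libraries and 70.9 ± 3.55 CPM in the circ libraries. Its log2 fold change was -0.23 (95% interval -0.48 to 0.01; edgeR adjusted p = 0.789), and the groups did not overlap. RAN, the GTPase that drives export by exportins, had 396 ± 58.5 and 331 ± 19.9 CPM and a log2 fold change of -0.26. Without control library 1 and circ library 3, RAN was called lower, at -0.32 (edgeR adjusted p = 0.01303). Chaperones that help load Argonautes (9 tested, median -0.16) had negative values for 8 genes and a positive one for 1. Over all tested genes, 6379 of 12469 values were negative. Among these chaperones the groups did not overlap for HSP90AA1, which was higher with circ siRNA, and for STIP1, which was lower. STIP1, which bridges HSP70 and HSP90, had 469 ± 25.7 and 393 ± 57.7 CPM, and PTGES3, the HSP90 co-chaperone p23, had 194 ± 12.8 and 172 ± 12.3 CPM.

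Partners of the silencing complex (15 tested, median 0.03) were led by FMR1, an RNA-binding translational regulator, with 36.1 ± 6.03 and 43.9 ± 6.22 CPM. MOV10, a helicase found with Argonautes, had 177 ± 8.63 and 193 ± 9.51 CPM. Among deadenylation genes (19 tested, median 0.05), CNOT7 and CNOT8, nuclease subunits of the CCR4-NOT complex, had log2 fold changes of -0.19 and -0.17 with no overlap between groups. Among decapping and decay genes (12 tested, median 0.02) the widest differences ran in opposite directions. DCP1B, a cofactor of decapping, had 3.94 ± 0.29 and 2.69 ± 0.73 CPM (log2 fold change -0.55, 95% interval -1.12 to 0.02). XRN1, the exonuclease that degrades decapped RNA, had 55.3, 36.6 and 39.0 CPM in the control libraries and 53.1, 50.3 and 93.9 CPM in the circ libraries. Control library 1 lay among the circ libraries and circ library 3 far above them. The XRN1 log2 fold change was 0.59 (95% interval -0.02 to 1.204; edgeR adjusted p = 0.777). In the fit that left out control library 1 and circ library 3, XRN1 was called, with a value of 0.46 (edgeR adjusted p = 0.00689).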

How the data were processed

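Libraries were made from poly-A RNA and sequenced in pairs, per the labels' protocols. CASAVA, cutadapt, HISAT2 and the build GRCh38 are named in the submitters' processing notes. How reads were counted, with or without strand, and against which annotation is not given in the sources used here. In the authors' files, the deposited table gives whole-number counts per gene and library, not normalised, and FPKM values that the authors scaled to gene length and to the sum of the library's count column, which was checked for every gene.

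Counts were tested with edgeR 4.0.16 in R 4.3.3 (quasi-likelihood F test, two-sided, TMM scaling, filterByExpr with a minimum count of 10, group as the only term) over 12469 genes, with Benjamini-Hochberg adjustment over all of them and a threshold of 0.05. CPM are relative to TMM-scaled totals, except for cell type markers, and log2 CPM used a prior count of 2. The fit was also run on simulated counts, drawn separately for each gene. These lacked the trend with gene length seen in the libraries, so that run does not test the fit under this trend. Alternatives were DESeq2 1.42.0, limma 3.58.1 (voom), other scaling and filters, offsets for length and GC (natural splines, 4 degrees of freedom, GC from GENCODE 29), a replicate block and left-out libraries. FPKM served to compare genes within a library, and shares were tested by exact permutation. Libraries of a group differed by more than sampling noise (chi-square per gene at least 5.92). Named were all 10 members, the 2 genes of each pathway list with the smallest p, and the 3 genes most correlated with AGO2 and with DICER1. Other genes (PRKRA, TNRC6B, TNRC6C and the markers) were named as family members or markers. HSP90AA1 was named outside this rule, as a chaperone with groups that did not overlap. Not all other list genes without overlap were named. The members and lists were chosen with earlier results of these data known. One of the genes most like DICER1 is not reported here.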

Additional observations from a re-analysis of the deposited data

How the results depend on the processing

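Genes called, 1 in the fit of all 6 libraries, numbered 0 at an adjusted p under 0.01, 7 at one under 0.1, 0 with library totals alone, 2 without the filter, 83 with DESeq2, 0 with limma-voom, 12 with length and GC offsets and 0 with each single library left out. Without control library 1 and circ library 3, 1845 genes were called, among them 2 members and 7 pathway genes; that fit drops the libraries that add most spread. Under every other alternative run, 0 members and 0 pathway genes were called. The DROSHA to DGCR8 difference turned to -0.042 without control library 1 and circ library 3 and ran from 0.021 to 0.249 as single libraries were left out; that of the AGO2 share ran from 0.364 to 1.364 and was 1.015 with counts, where the groups no longer overlapped (exact p = 0.1, the smallest possible). TNRC6A ran from -0.30 to 0.14 as single libraries were left out, positive without control library 1 and negative at -0.016 when circ library 3 was left out as well. Of 160 member fold changes under alternatives, 157 had the same sign and call. This tally leaves out changes in size: AGO3, at 0.12 in the main fit and 0.01 with length and GC offsets, counts as the same. The alternatives also share libraries and most called few genes, so the tally is no measure of stability. The cause of the changes between settings was not tested. Same-numbered libraries did not deviate together throughout (correlations -0.17, 0.46 and -0.37), and 2 of 6 libraries correlated best with their own number. This check cannot settle whether the numbers pair the samples, because control library 1 and circ library 3 add most of the spread. With the replicate block 0 genes and 0 members were called, alone or with length and GC offsets, and the AGO2 share difference was 0.968 (exact sign-flip p = 0.25, the smallest possible). AGO4, with 188 to 342 counts per library, rests on the fewest reads.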
